A study of Mus musculus with 6 samples.

Results

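The genes described here encode receptors, ligands and signal carriers through which B cells receive help and survival signals: the receptor CD40, the 3 receptors of the cytokines BAFF and APRIL, the 3 clustered ligands lymphotoxin alpha, lymphotoxin beta and TNF, the adaptors TRAF2 and TRAF3, and the kinase NIK. They were chosen by name, as 10 of the 39179 Ensembl gene identifiers with a deposited value, and the choice set no threshold on a measured value. Their messenger RNA was measured by RNA-Seq in B cells sorted from the Peyer's patches of the mouse ileum, lymphoid follicles of the gut wall. GC B cells, the germinal center cells that divide and mutate their antibody genes, were sorted as Fas+GL7+ B cells, and resting B cells, called naive B cells in the labels, as Fas-GL7- B cells. Each population was analyzed in triplicate (3 pools), each made from 5 female wild-type C57BL/6 mice aged 12 wk. No transgene, deletion or treatment was named for either population. Whether equal pool numbers stand for the same mice is not stated.

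CD40 is bound by CD40 ligand on helper T cells, and without this signal GCs are not formed or kept. BAFF-R (gene Tnfrsf13c) binds BAFF and keeps mature B cells alive, TACI (Tnfrsf13b) binds BAFF and APRIL, and BCMA (Tnfrsf17) is best known on plasma cells. In resting cells TRAF3 and TRAF2 hold NIK (Map3k14) at a low protein level, and ligation of CD40 or BAFF-R releases NIK, which starts the noncanonical NF-kB pathway through the Nfkb2 precursor. Lymphotoxin alpha and beta form a membrane ligand by which B cells act on stromal and follicular dendritic cells, and the B cell's TNF serves the same follicles.

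Depth was estimated at 9800000 to 16100000 reads a pool from the steps between low values, of which 62.4% to 68.3% lay near a whole number of reads (within 0.1), so these depths are approximate. Pools of 1 population correlated at 0.963 or more on the log2 scale over the genes tested, against 0.806 to 0.814 between populations, and no pool stood apart. Both sorts carried B cell genes: Cd79a, a chain of the B cell receptor, was at 1077 ± 21.1 TPM (SD, n = 3; a level corrected for transcript length and scaled to the same total in each pool) in GC B cells and 2349 ± 46.0 TPM in naive B cells. All 8 GC B cell markers were higher and all 8 markers of naive follicular B cells lower in the GC pools. Genes of other cells were also present. Of 12 T cell markers 8 were under 1 TPM in every pool, and the summed level, 131 to 142 TPM in the GC pools and 66.9 to 70.4 TPM in the naive pools, was almost wholly Lck, while Cd3d was at 0 to 0.405 TPM. The 11 myeloid and dendritic markers summed to 44.8 to 50.4 TPM in the GC pools and 11.5 to 16.4 TPM in the naive pools, led by Flt3, with Fcgr1 listed at 0 in all pools and 6 of the 11 under 1 TPM in every pool. The higher GC sum came from Flt3 (mean 31.4 TPM in GC, 1.24 in naive) and Cd68 (13.1 and 5.88 TPM). Lyz2 (1.28 and 3.30 TPM), Itgam (0.106 and 1.02 TPM) and Emr1 (0.046 and 0.696 TPM) had lower means in the GC pools. The 9 epithelial markers summed to 65.6 to 142 TPM in the GC pools and 192 to 233 TPM in the naive pools, led by Fabp2, and none was listed at 0 in all pools. The 7 stromal markers summed to 30.5 to 34.1 TPM in the GC pools and 126 to 138 TPM in the naive pools, led by Pecam1, with 5 of the 7 under 1 TPM in every pool. The part of these cells in the results below was not tested.

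The genes lie on 6 chromosomes of the mouse genome (RefSeq positions, GRCm38.p6). Ltb (chr17:35194507-35196305), Tnf (chr17:35199367-35202007) and Lta (chr17:35203165-35205578) are neighbors within 11072 bases, with 3061 bases between Ltb and Tnf and 1157 bases between Tnf and Lta. Cd40 is at chr2:165055614-165071654, Tnfrsf13b at chr11:61126283-61153170, Tnfrsf13c at chr15:82221742-82224380 and Tnfrsf17 at chr16:11313232-11320074. Traf2 is at chr2:25517982-25546940, Traf3 at chr12:111166321-111267155 and Map3k14 at chr11:103219764-103267401. RefSeq's promoter windows were matched for 9 of the 10 genes. The 250 bases before the transcript start are shown for Ltb and Tnf, neighbors whose fold changes differed. They are also shown for Map3k14 and Tnfrsf13c, of which Map3k14 fell more. In these 4, as in Traf2, which is not shown, the window lies outside the annotated gene. Capitals mark an NF-kB consensus match in Ltb, GGGCGG (the core of a GC box) in Map3k14, Tnfrsf13c and Tnf, and TATAAA in Tnf.
Ltb, chr17:35194257-35194506, plus strand: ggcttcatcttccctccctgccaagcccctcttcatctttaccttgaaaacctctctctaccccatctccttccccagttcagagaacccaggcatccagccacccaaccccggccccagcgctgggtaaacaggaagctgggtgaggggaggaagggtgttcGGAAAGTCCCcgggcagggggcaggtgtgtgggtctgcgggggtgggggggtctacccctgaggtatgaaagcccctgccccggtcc
Tnf, chr17:35202008-35202257, minus strand: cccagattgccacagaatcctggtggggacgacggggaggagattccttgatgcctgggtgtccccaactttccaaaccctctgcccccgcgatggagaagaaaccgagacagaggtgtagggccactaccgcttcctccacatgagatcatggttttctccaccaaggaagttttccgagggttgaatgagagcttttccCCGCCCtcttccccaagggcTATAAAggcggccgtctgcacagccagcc
Map3k14, chr11:103267402-103267651, minus strand: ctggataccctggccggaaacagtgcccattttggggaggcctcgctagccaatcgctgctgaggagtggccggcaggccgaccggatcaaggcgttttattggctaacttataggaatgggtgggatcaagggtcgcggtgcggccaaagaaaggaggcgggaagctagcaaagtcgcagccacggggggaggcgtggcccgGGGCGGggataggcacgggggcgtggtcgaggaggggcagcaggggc
Tnfrsf13c, chr15:82224381-82224630, minus strand: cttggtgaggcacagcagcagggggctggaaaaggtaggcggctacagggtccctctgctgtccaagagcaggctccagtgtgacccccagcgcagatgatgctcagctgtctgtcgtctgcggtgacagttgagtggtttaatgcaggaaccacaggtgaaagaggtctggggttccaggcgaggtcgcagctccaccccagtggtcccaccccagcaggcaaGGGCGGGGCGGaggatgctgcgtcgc

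Each motif was searched on both strands of these 250 bases. The NF-kB consensus was found in 2 of the 9 windows, Ltb (78 to 87 bases before the start, on the opposite strand) and Traf3 (1 to 10 bases before it), and in 3.9% of all 32851 RefSeq windows. TATAAA was found in 3 of the 9 (Tnf, 24 to 29 bases before the start, Lta and Tnfrsf17) and in 12.37% of all windows. GGGCGG was found in 5 of the 9 and in 32.74% of all. The 2 matches in Tnfrsf13c overlap by 1 base. The octamer ATGCAAAT was found in none of the 9 and in 1.6% of all windows. A match of letters is not evidence of binding.

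Of the 9 genes that could be tested, 7 were lower and 1, Lta, was higher in GC B cells, and Traf2 was not called either way. The falls were largest for Tnfrsf13b and Ltb, whose mean levels in naive B cells were 2.85 and 2.40 times those in GC B cells, and Lta rose 1.33-fold. Calls are those of limma on log2(TPM + 1) at a Benjamini-Hochberg adjusted p under 0.05 over all 12785 genes that reached 1 TPM in 3 or more pools, and all log2 fold changes below are GC minus naive on this scale. The 2 populations differ widely, so these counts stand against a high background: 65.6% of all genes tested were called, 35.5% as higher and 30.1% as lower in GC B cells. The median log2 fold change was -0.40 over the 9 genes and 0.03 over all genes tested. The pools of the 2 populations did not overlap in 6 of the 9 genes, against 70.7% of all genes tested. In sorted bulk samples, fewer expressing cells and less RNA per cell cannot be told apart. Without GC replicate 1, or without naive replicate 2, 4 genes were called lower instead of 7, since Tnfrsf13c, Tnf and Traf3 lost their calls.

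**Figure D1:**
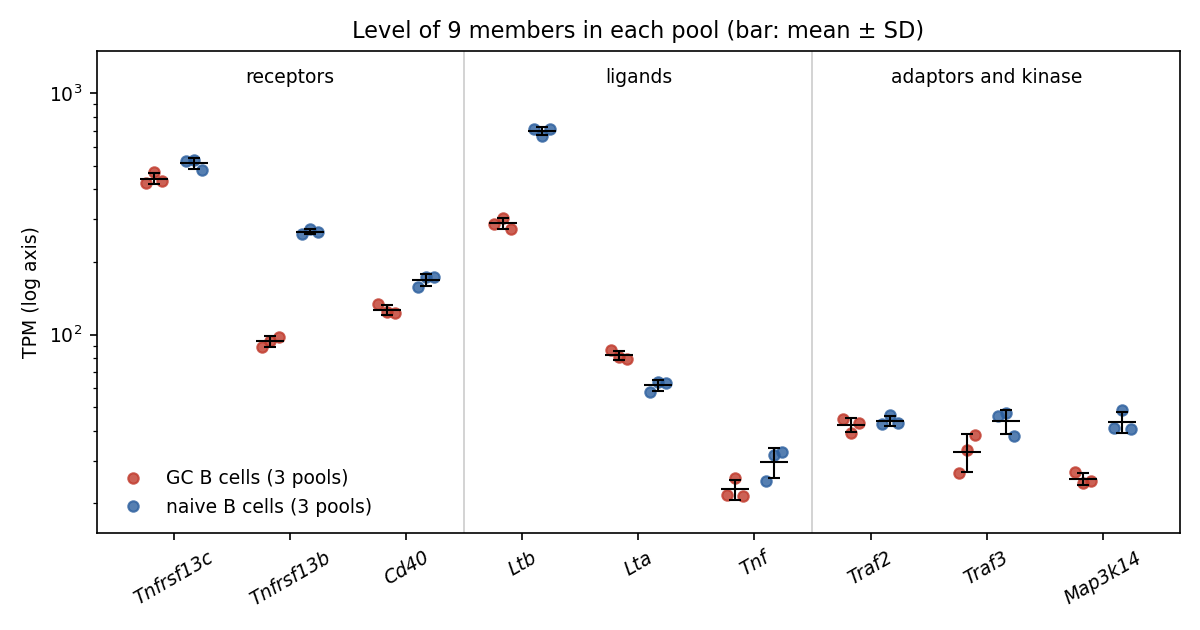
Level of 9 genes in each pool, in TPM on a log axis, with 1 point per pool (red, 3 GC pools; blue, 3 naive pools) and black bars for the mean ± SD. Red and blue points are apart for Tnfrsf13b, Cd40, Ltb, Map3k14, Lta and Tnfrsf13c and overlap for Tnf, Traf2 and Traf3; Tnfrsf17, at or near 0, is not drawn.

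The order of the levels differed at the top. In naive B cells Ltb was first, at 696 ± 26.6 TPM (SD, n = 3), followed by Tnfrsf13c at 512 ± 25.6 TPM, Tnfrsf13b at 267 ± 6.21 TPM, Cd40 at 168 ± 9.38 TPM and Lta at 61.7 ± 3.25 TPM, and the pools of each of these were apart from those of the next. Traf2, Traf3 and Map3k14 followed at 44.0, 43.8 and 43.4 TPM, an order within the spread of the pools, and then Tnf and Tnfrsf17. In GC B cells Tnfrsf13c came first and Ltb second, Cd40 stood above Tnfrsf13b, and Lta and Traf2 followed, each apart from the next. Traf3, Map3k14 and Tnf, at 32.8, 25.3 and 22.8 TPM, overlapped with their neighbors in the order.

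Among the receptors, TACI showed the largest fall. Tnfrsf13b (ENSMUSG00000010142) measured 88.7, 94.2 and 98.2 TPM across GC replicates 1, 2 and 3 and 261, 273 and 267 TPM across the naive replicates. Every GC pool was below every naive pool, by far more than the pools of 1 population differ among themselves. The log2 fold change was -1.50 (SE 0.0508, limma adjusted p = 1.4e-06), and 15.3% of all genes tested had a larger change in either direction. The end of this gene shares 1390 bases with Usp22, which was at 10.6 to 11.9 TPM in the GC pools and 28.7 to 31.3 TPM in the naive pools. Whether reads were assigned by strand is not stated.

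The estimate for BAFF-R was smaller than that for TACI. Tnfrsf13c (ENSMUSG00000068105) measured 427, 471 and 432 TPM across the GC pools and 526, 527 and 482 TPM across the naive pools. The populations did not overlap, but the highest GC pool and the lowest naive pool were close. Its log2 fold change was -0.21 (SE 0.0579, limma adjusted p = 0.0187), the smallest called among these genes. The call was lost, at adjusted p of 0.0568 to 0.0644 in limma, without GC replicate 1, GC replicate 3, naive replicate 1 or naive replicate 2.

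Cd40 (ENSMUSG00000017652) measured 134, 124 and 123 TPM across the GC pools and 157, 173 and 174 TPM across the naive pools. All GC pools were lower than all naive pools. The log2 fold change was -0.40 (SE 0.0593, limma adjusted p = 0.00112), so that GC B cells held 0.754 of the naive level, and the call held under each alternative setting. CD40 remained among the more abundant transcripts in both populations, above 90.0% of the genes tested in GC B cells and 93.6% in naive B cells.

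BCMA was near the limit of detection. Tnfrsf17 (ENSMUSG00000022496) was at 0.193 TPM in GC replicate 1, worth about 0.97 of a read, and was listed at 0 in the other 5 pools. At the estimated depth, 3 reads would be worth 0.401 to 0.664 TPM in a pool, so levels under this could be missed. It did not pass the filter and was not tested. Of 6 plasma cell markers 3 were higher and 3 lower in the GC pools, where Igj, the joining chain of secreted antibody, was at 669 ± 20.3 TPM (SD, n = 3) against 33.3 ± 9.77 TPM in the naive pools.

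The 3 clustered ligands did not change alike. Ltb (ENSMUSG00000024399), the membrane anchor of the lymphotoxin trimer, measured 288, 305 and 275 TPM across the GC pools and 708, 665 and 714 TPM across the naive pools. Every naive pool was far above every GC pool, and the log2 fold change was -1.26 (SE 0.0534, limma adjusted p = 3.6e-06). Lta (ENSMUSG00000024402), which also forms a secreted trimer, went the other way. It measured 86.3, 81.0 and 79.1 TPM across the GC pools and 57.9, 63.9 and 63.2 TPM across the naive pools. All 3 GC pools were above all naive pools, with a log2 fold change of 0.41 (SE 0.0611, limma adjusted p = 0.00121), and under the alternatives the change lay between 0.27 and 0.43 and stayed called. Ltb and Lta are also made by T cells. The T cell markers other than Lck were at 1.83 TPM or less in any pool. Lck itself was called higher in the GC pools by limma, with a log2 fold change of 0.99. The part of T cells in the levels of Ltb and Lta was not tested.

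Tnf (ENSMUSG00000024401), the third gene of the cluster, measured 21.6, 25.4 and 21.5 TPM across the GC pools and 24.7, 31.6 and 32.7 TPM across the naive pools. Naive replicate 1 was below GC replicate 2, so the populations overlapped. The log2 fold change was -0.36 (SE 0.127, limma adjusted p = 0.0442). This call was lost without a filter on low values (adjusted p = 0.0719 in limma) and without GC replicate 1, GC replicate 3, naive replicate 2 or naive replicate 3 (adjusted p = 0.12 to 0.125 in limma). Tnf rested on about 223 to 542 reads a pool, the fewest among the 9 genes tested.

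Of the signal carriers, the kinase fell and TRAF2 did not pass the test. Map3k14 (ENSMUSG00000020941), which encodes NIK, measured 26.9, 24.2 and 24.8 TPM across the GC pools and 41.0, 48.6 and 40.7 TPM across the naive pools. The populations were well apart, with a log2 fold change of -0.75 (SE 0.0893, limma adjusted p = 0.000401). Map3k14 shares 18998 bases of its span with the noncoding gene Gm34823, which has no value here. NIK is held down mainly at the protein level, which was not measured.

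Traf2 (ENSMUSG00000026942), a ubiquitin ligase adaptor of CD40 and TNF receptors, measured 44.7, 39.3 and 42.9 TPM across the GC pools and 42.5, 46.5 and 43.0 TPM across the naive pools. The pools overlapped, and the log2 fold change was -0.06 with a 95% interval of -0.23 to 0.11 (limma adjusted p = 0.507). Traf3 (ENSMUSG00000021277), which brings NIK to its degradation, measured 26.7, 33.3 and 38.3 TPM across the GC pools and 46.1, 47.2 and 38.0 TPM across the naive pools. GC replicate 3 was above naive replicate 3, and the GC pools varied more than for any of the other 8 genes tested, with a coefficient of variation of 17.8%. The log2 fold change of Traf3 was -0.42 (SE 0.148, limma adjusted p = 0.0453). Without GC replicate 1, the lowest pool, it was -0.28 (limma adjusted p = 0.104). The call was also lost without a filter on low values and without GC replicate 2, naive replicate 1 or naive replicate 2 (limma adjusted p = 0.0767 to 0.129). Traf3 overlaps the noncoding gene 4930595D18Rik, at 0 to 0.794 TPM, and Traf2 holds the pseudogene Gm13433, at 0 to 6.34 TPM.

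**Figure D2:**
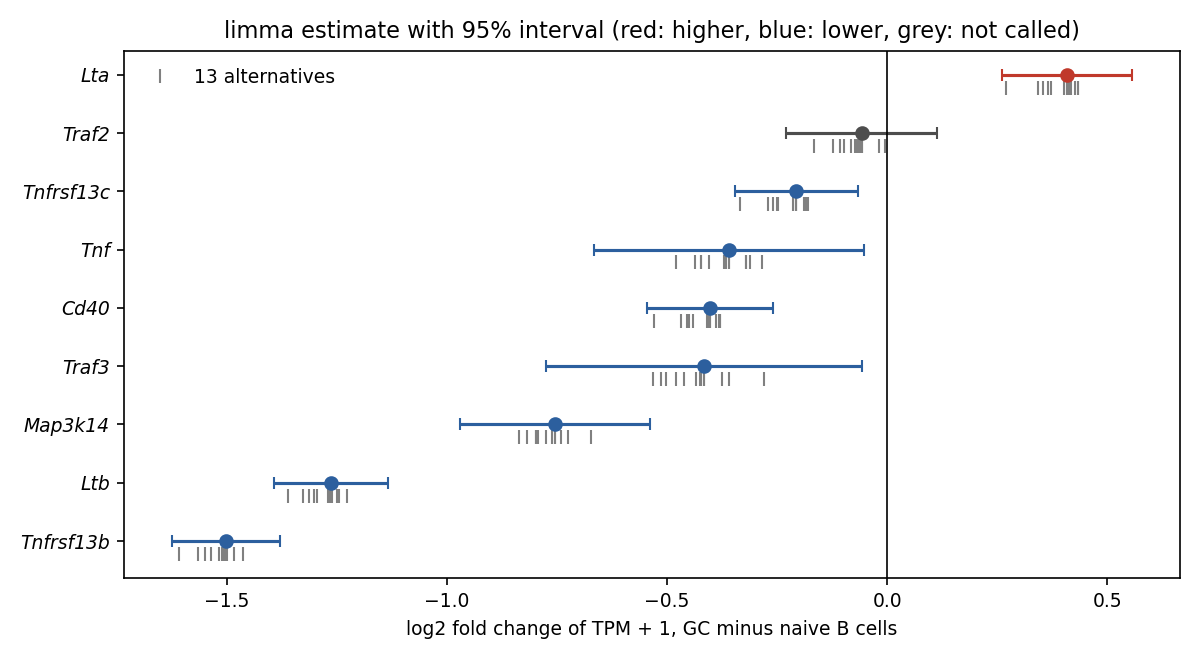
Log2 fold change (GC minus naive B cells, log2 of TPM + 1) of the 9 genes tested, with 95% intervals from limma and grey ticks for the 13 alternatives. Lta lies above 0 at 0.41, Tnfrsf13b and Ltb lie farthest below it at -1.50 and -1.26, and the interval of Traf2 spans 0.

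Because the pools were compared on levels that sum to a fixed total, the balance within each gene group was also measured inside each pool. BAFF-R transcript made up 82.8%, 83.3% and 81.5% of the summed TPM of Tnfrsf13b, Tnfrsf13c and Tnfrsf17 in the GC pools and 66.9%, 65.9% and 64.4% in the naive pools, a difference of 16.8 percentage points. Tnfrsf13c was 4.74 ± 0.307 times Tnfrsf13b in GC B cells and 1.92 ± 0.106 times in naive B cells (SD, n = 3 each). Ltb made up 72.7%, 74.2% and 73.2% of the summed TPM of Lta, Ltb and Tnf in the GC pools and 89.5%, 87.5% and 88.2% in the naive pools. The ratio of Ltb to Lta was thus 3.53 ± 0.224 in GC B cells and 11.3 ± 0.904 in naive B cells (SD, n = 3 each). For both shares all GC pools were on 1 side of all naive pools, and the exact two-sided permutation test gave p = 0.1, the smallest that 3 pools against 3 allow (0.15 after Benjamini-Hochberg adjustment over 3 comparisons), so that it cannot pass 0.05. The log2 ratio of Traf3 to Traf2 was -0.74, -0.24 and -0.16 in the GC pools and 0.12, 0.02 and -0.18 in the naive pools, which overlapped (exact permutation p = 0.2, adjusted 0.2). The difference between the populations in this ratio, -0.37, was -0.19 without GC replicate 1.

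**Figure D3:**
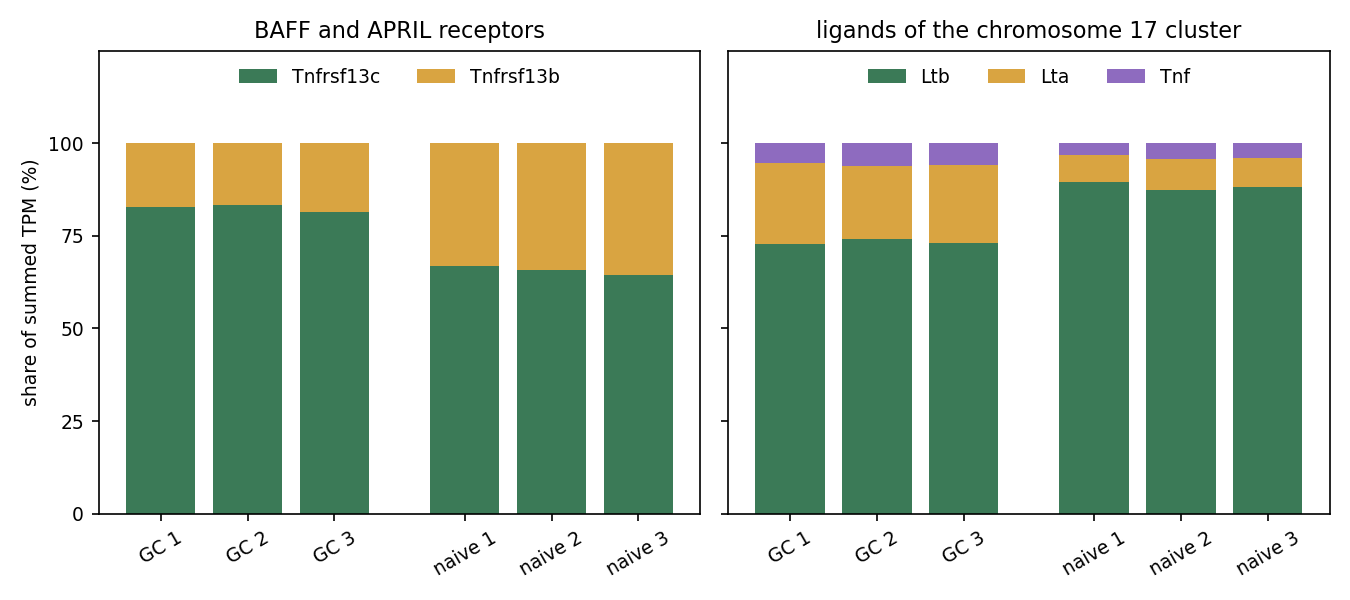
Share of each gene in the summed TPM of its group, in percent, in the 3 GC and 3 naive pools: Tnfrsf13c and Tnfrsf13b (with Tnfrsf17, too low to be seen) on the left, Ltb, Lta and Tnf on the right. The Tnfrsf13c share is 81.5% to 83.3% in the GC pools and 64.4% to 66.9% in the naive pools, and the Lta share is 19.7% to 21.8% and 7.33% to 8.40%.

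The other genes of the pathway were followed in 5 lists, of which 63 distinct genes could be tested. Together 17 of the 63 were called higher and 32 lower in GC B cells, 77.8% in all, with a median log2 fold change of -0.27. Over all genes tested 65.6% were called, 35.5% as higher and 30.1% as lower. The counts of each list below stand against these shares. Some of these directions were set by the sort or the filter, as said with the lists below. In the IKK and NF-kB list 12 of 17 genes fell and 0 rose by limma (at an unadjusted p under 0.05 the counts were 12 and 1), with a median of -0.56. The largest falls were those of Nfkbid, an atypical inhibitor of kappa B, at 72.6 ± 5.17 TPM in naive and 21.6 ± 0.672 TPM in GC B cells (SD, n = 3 each), Bcl3, its relative that binds NF-kB dimers in the nucleus, at 112 ± 12.9 and 42.5 ± 1.65 TPM, and Ikbkb, the IKK beta kinase, at 198 ± 9.91 and 84.8 ± 2.40 TPM. Nfkb2, the substrate of the NIK pathway, was at 148 ± 8.03 TPM in naive and 89.6 ± 3.32 TPM in GC B cells, and its partner Relb at 69.2 ± 3.27 and 45.4 ± 0.947 TPM; both, named for their place in the pathway after their values were seen, were called lower. Without GC replicate 1, 1 gene of this list was called higher. Without GC replicate 2, GC replicate 3 or naive replicate 1, 10 were called lower.

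In the list of other TRAFs and receptor adaptors, 5 of 17 rose and 8 fell, with a median of -0.11. Without GC replicate 1, and under quantile normalization, 3 were called higher, since Traf4 and Tnip1 lost their calls. Only 4 were called higher with FPKM as deposited, median centring or the replicate number as a block. The count was also 4 when any pool other than GC replicate 1 was left out. Falls numbered 7 without GC replicate 1, 2 or 3 or naive replicate 1 or 2, and 8 in the other settings. Birc2 and Birc3 encode the ubiquitin ligases cIAP1 and cIAP2 that work with TRAF2 and TRAF3 on NIK, and they moved in opposite directions. Birc2 was at 43.8 ± 2.07 TPM in GC against 30.1 ± 1.83 TPM in naive B cells, and Birc3 at 139 ± 10.1 and 305 ± 22.2 TPM (SD, n = 3 each). The log2 fold changes were 0.53 and -1.13. Cyld, a deubiquitinase that restrains NF-kB, and Traf1, an NF-kB target, were the other rises named, at 0.47 and 0.45. Otud7b, a deubiquitinase of TRAF3, fell by 1.27 on the log2 scale and Traf3ip3, a TRAF3 binding protein, by 0.89.

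Few other TNF superfamily ligands were measurable. Of 12 with an identifier, 3 passed the filter, 2 were higher and 1 was lower in GC B cells. Cd70 passed it only through the GC pools and Tnfsf10 only through the naive pools, so the filter set the direction of both. Tnfsf9, the ligand of the costimulatory receptor 4-1BB, measured 23.7, 20.0 and 23.8 TPM across the GC pools and 2.17, 2.01 and 1.14 TPM across the naive pools. Cd40lg and Tnfsf13b, which encode the ligands of CD40 and BAFF-R, did not pass the filter, at 1.05 and 0.496 TPM or less in any pool. Among 13 tested receptors of the superfamily 3 rose and 7 fell, with a median of -0.47. Under the 13 alternatives 3 rose each time and 5 to 7 fell. Only 5 fell without a filter on low values and without GC replicate 2, GC replicate 3 or naive replicate 2. Tnfrsf8, among the rises, passed the filter only through the GC pools, and Tnfrsf12a, among the falls, only through the naive pools. The filter thus set the direction of both. Fas, which was used to sort the cells, was at 114 ± 5.55 TPM in GC against 3.22 ± 0.314 TPM in naive B cells. Relt, an orphan receptor of the family, fell from 29.3 ± 1.98 to 2.05 ± 0.259 TPM, Tnfrsf18, the costimulatory receptor GITR, from 19.4 ± 2.29 to 1.32 ± 0.611 TPM, and Tnfrsf1b, a TNF receptor, from 19.1 ± 0.611 to 7.74 ± 0.865 TPM.

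The genes known to be induced by CD40 in B cells did not move together. Of 19 tested, 9 were higher and 7 lower in GC B cells, with a median of 0.01. The 9 include Fas, by which the cells were sorted, and Cd80, which passed the filter only through the GC pools. The direction of both was thus set beforehand. Besides Fas, Pim1, a survival kinase, was at 187 ± 6.03 TPM in GC against 39.9 ± 2.69 TPM in naive B cells, and the costimulatory ligand Cd86 at 91.7 ± 3.33 and 20.0 ± 2.07 TPM. Ccr7, the receptor that guides cells to the T zone, was at 1.01 ± 0.336 TPM in GC against 87.6 ± 8.46 TPM in naive B cells. Irf4, a transcription factor of activation and plasma cell fate, was at 21.7 ± 0.485 and 76.4 ± 5.46 TPM, and the cytokine subunit Ebi3 at 3.73 ± 0.956 and 10.2 ± 0.485 TPM. All 19 genes named by rule from these lists kept their call and direction under each of the 13 alternatives, among them the scalings.

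**Figure D4:**
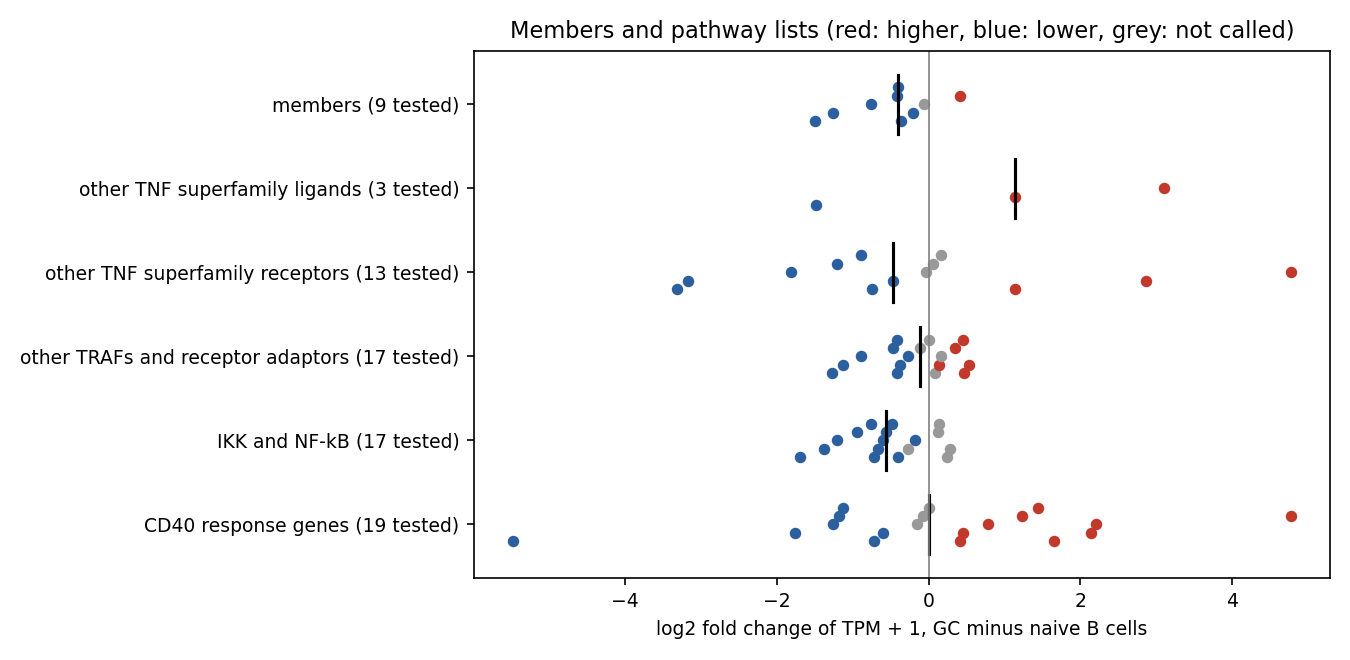
Log2 fold change (GC minus naive B cells, log2 of TPM + 1) of each gene tested, for the genes described here and 5 pathway lists, with the median as a black line. Most points of the IKK and NF-kB list lie below 0 (median -0.56), whereas the CD40 response genes spread to both sides (median 0.01).

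The genes whose pattern over the 6 pools was most like those of Lta and Tnfrsf13b were sought among 8431 others with a mean of at least 10 TPM, as the smallest root mean square difference of gene-centered log2(TPM + 1). Closest to Lta were Rbm17, a splicing factor (0.017), Nup35, a nuclear pore protein (0.030), and Prcc (0.035). Closest to Tnfrsf13b were Nnt, a mitochondrial transhydrogenase (0.045), Rassf5, a Ras effector (0.045), and 5031425E22Rik (0.048). These values describe likeness over 6 pools of 2 populations, and such patterns are common where 65.6% of genes differ.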

How the data were processed

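RNA-Seq of sorted Peyer's patch B cells was analyzed in 6 pools. Per the labels, libraries were made from total RNA with the NEB Next Ultra kit. The authors deposited 1 FPKM value for each gene in each pool, with 2 decimals. The submitters' notes list cutadapt 1.9, RSEM 1.2.25 and edgeR; the methods give the transcriptome of NCBIm38. FPKM was divided by its pool total to give TPM. Depth came from value steps of short genes with 1 transcript. RSEM divides reads of similar genes by a model. The 2 populations were compared using limma 3.58.1 (eBayes with trend; R 4.3.3) on log2(TPM + 1), which understates changes of low genes; shares were compared with an exact permutation test (scipy 1.17.1). Figures and other steps used Python 3.11.15. The limma fit was tested on simulated data for 12785 genes. Members and lists were chosen with earlier results of these data known. Named were all members and, per pathway list, the 3 largest changes each way among called genes of at least 10 TPM; the genes nearest in pattern were those to the members with the largest rise and fall. Symbols came from an annotation of another build, which named 33398 of the 39179 identifiers, and only Tnfsf12 of the lists was not matched. RefSeq supplied positions and sequences of the files' build. A gene of the B cell markers is not reported here.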

Additional observations from a re-analysis of the deposited data

How the results depend on the processing

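The direction of each of the 9 fold changes held under all 13 alternatives, which were another pseudocount, no filter, FPKM as deposited, 2 other scalings, TPM without immunoglobulin genes, a replicate block and the omission of 1 pool at a time. The lack of a filter and the block cannot change a fold change, so they bear only on the calls. Of 117 fold changes recomputed for the members, 102 stayed on the same side of the threshold; those of Cd40, Tnfrsf13b, Lta, Ltb, Traf2 and Map3k14 all did. With pools left out in turn, the number of members called lower ranged from 4 (without GC replicate 1 or naive replicate 2) to 6, and 1 was called higher each time. The cause was not tested. The median over all genes moved by at most 0.088 on the log2 scale (quantile normalization). The share of calls that were higher was 54.1%, and 47.8% to 56.2% under the alternatives.

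With the replicate number as a block, 1 member was called higher and 6 lower (Traf3 had adjusted p = 0.0854 in limma), with 4342 genes called higher and 3618 lower in all, and 16 and 31 of the pathway genes. The paired differences averaged 16.8 points for the Tnfrsf13c share, -15.0 points for the Ltb share and -0.37 for the log2 ratio of Traf3 to Traf2. With equal numbers of pools these averages must equal the unpaired differences, so they are no separate check. Deviations of same-numbered pools correlated at 0.083, 0.0225 and 0.0456 (none over 0.1). Those of pools with unequal numbers correlated at -0.0746 to 0.0298, and only naive replicate 2 with GC replicate 3 was above 0. Correlations this small cannot show whether equal numbers stand for the same mice. The numbers were not taken as pairs. Files without counts limit precision to the spread between pools.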

Other observations

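The other TRAFs, named after their values were seen, also moved in different directions. Traf1 measured 95.4, 98.8 and 101 TPM across the GC pools and 66.5, 76.9 and 71.7 TPM across the naive pools, and Traf4 at 51.7 ± 2.84 and 40.6 ± 4.52 TPM (SD, n = 3 each); both were called higher in GC B cells by limma, though Traf4 lost its call without GC replicate 1 and under quantile normalization. Traf5 was called lower, at 75.2 ± 1.60 TPM in GC against 91.1 ± 2.30 TPM in naive B cells. Traf6 (14.0 and 15.3 TPM) and Traf7 (193 and 183 TPM) were not called.

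Tnfrsf8, the receptor CD30, measured 6.35, 6.55 and 6.47 TPM across the GC pools and 0.041, 0.027 and 0 TPM across the naive pools. Cd70, the ligand of CD27, reached 1.52, 1.04 and 1.06 TPM across the GC pools and was listed at 0 in all naive pools, and Cd27 itself was at 3.35 ± 1.17 and 3.38 ± 0.551 TPM and was not called. These genes, too, were named after their values were seen. Tnfrsf8 and Cd70 passed the filter only through the GC pools, so the filter set the direction of their change.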
